A study of Mus musculus with 4 samples.

Results

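Resident large peritoneal macrophages are the long-lived phagocytes of the abdominal cavity, and 10 genes known from these cells were examined in RNA sequencing data from Dnmt1fl/fl and Dnmt1KO peritoneal macrophages. The 10 genes were Gata6, Timd4, Icam2, Rarb, Alox15, Prg4, Selp, F5, Vsig4 and Cd5l, of 13834 genes in the table. They were chosen by name because, as a set, they were lower in the Dnmt1KO samples, so their differences between the genotypes are given as a description without a test. All 10 passed the filter on low counts, as did 12542 genes in all.

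RNA was sequenced from 4 samples of mouse peritoneal macrophages, 2 Dnmt1fl/fl and 2 Dnmt1KO. Mice were 10 weeks old, and cells were washed out 3 days after 2 ml of 4% thioglycolate broth was injected into the peritoneal cavity, an irritant that draws leukocytes in. Both genotypes carried the floxed Dnmt1 gene, which encodes the maintenance DNA methyltransferase, and the Dnmt1KO mice also carried Cre recombinase under the LysM promoter, which is active in macrophages and neutrophils. The study's isolation protocol ends with the washed-out cells spun down and put into culture medium with serum, and how long they were kept there before RNA was taken is not given in the sources used here. Whether the Dnmt1fl/fl mice carried Cre and whether each sample was 1 mouse are also not given in the sources used here. Differences between replicates of a genotype may therefore be technical in part, and every p-value below measures only the spread between these samples.

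Large peritoneal macrophages are seeded before or soon after birth and renew themselves in the cavity. Their identity depends on the transcription factor GATA6, whose expression is maintained by retinoic acid made in the surrounding tissue, and GATA6 in turn controls many of the genes by which the cells are recognised. When the cavity is inflamed these cells are recovered in much smaller numbers, while monocytes enter and become macrophages that lack this program, so a lavage after thioglycolate holds a mixture of both.

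The libraries held 20228071 to 24198943 counts, and values are given as CPM, the counts of a gene scaled to a common library size, after TMM scaling, a correction for differences in composition between libraries. Dnmt1, the targeted gene, measured 86.6 and 67.0 CPM in Dnmt1fl/fl replicates 1 and 2 and 37.0 and 42.7 CPM in Dnmt1KO replicates 1 and 2, which were 48.1% and 55.6% of the Dnmt1fl/fl mean. Dnmt1KO replicate 1 stood apart from the other libraries. It was the lowest of the 4 samples in 39.6% of the genes tested and the highest in 38.8%. Across all genes tested, the median absolute gap on the log2 scale was 0.48 between the Dnmt1KO samples and 0.21 between the Dnmt1fl/fl samples. Results for the resident genes are therefore given with and without this library.

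All 10 resident genes had their lowest value in Dnmt1KO replicate 1, against the 39.6% of all tested genes that did so. In Dnmt1KO replicate 2 they were divided, and 3 of the 10 (Gata6, F5 and Vsig4) lay above both Dnmt1fl/fl samples, 5 lay between them and 2 (Timd4 and Icam2) lay below both. Of all 12542 tested genes, 4084 lay above both Dnmt1fl/fl samples in Dnmt1KO replicate 2 and 4014 (32.0%) lay below both. The fitted log2 fold change (Dnmt1KO over Dnmt1fl/fl) was below 0 for 10 of 10, with a median of -0.43, where 49.1% of all tested genes were below 0 with a median of 0.0046. Both Dnmt1KO samples were below both Dnmt1fl/fl samples for 2 of 10, against 8.56% of all tested genes. Without Dnmt1KO replicate 1 the median was 0.060 and 5 of 10 were below 0. Without Dnmt1KO replicate 2 it was -0.93, and 10 of 10 were below 0. With libraries scaled to a list of genes of all macrophages, which moved the median of all tested genes to 0.19, 8 of 10 were below 0 and Gata6 and Vsig4 were above it. Lyz2, which was lower in both Dnmt1KO samples than in both Dnmt1fl/fl samples, made up 17.97% to 44.3% of the summed level of that list. With Lyz2 left off that list, 10 of 10 were below 0 and the median of all tested genes was -0.23. Since these genes were chosen on this contrast, nothing is read from these shares. In RNA from a mixture of lavage cells, fewer resident cells and less of these transcripts per cell cannot be told apart.

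**Figure D1:**
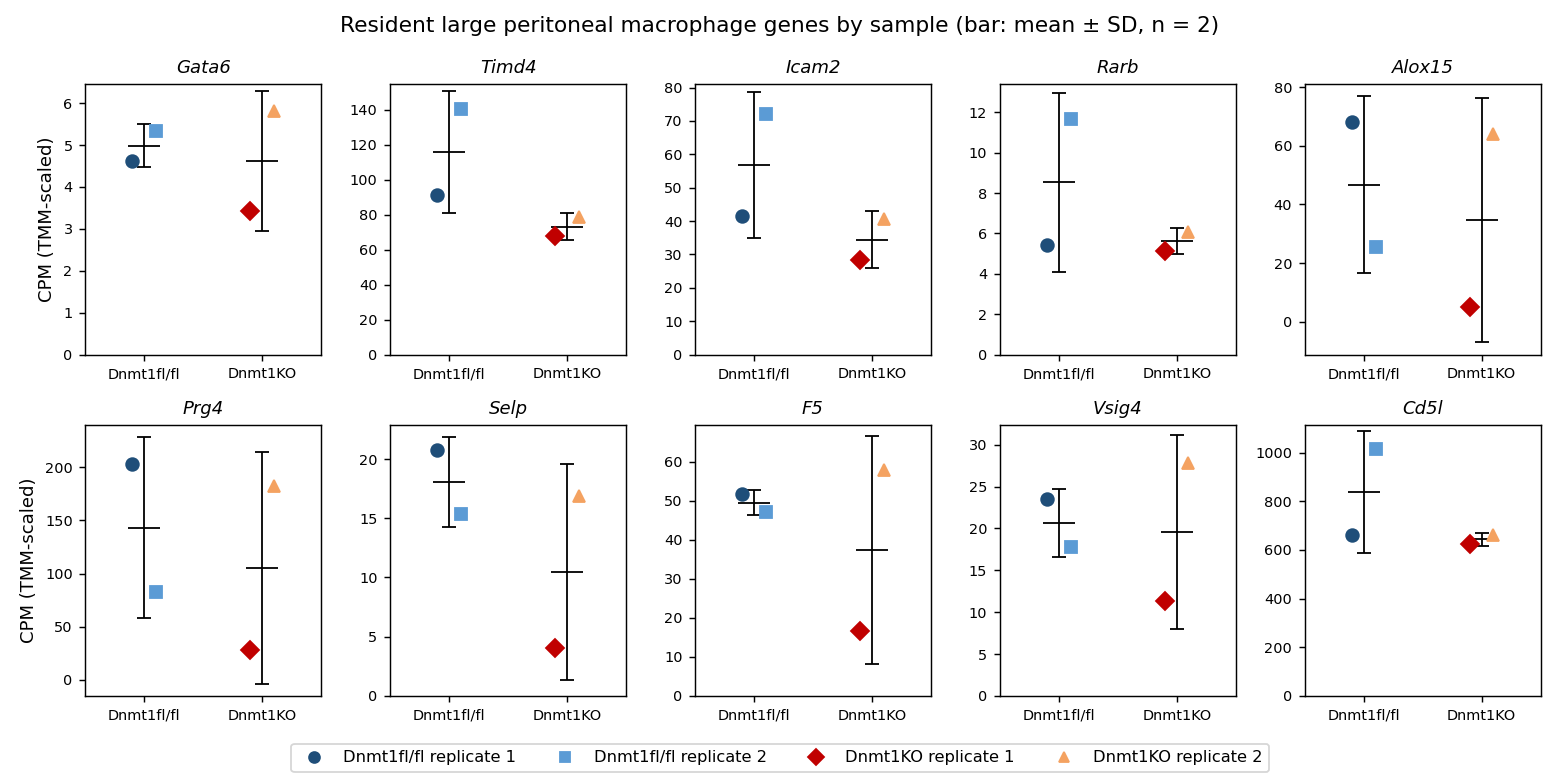
CPM after TMM scaling (vertical axes, each starting at or below 0) of the 10 resident genes in each of the 4 samples, by genotype, with bars for the mean ± SD (n = 2). Dnmt1KO replicate 1 is the lowest point in all 10 panels, while Dnmt1KO replicate 2 is the highest point for Gata6, F5 and Vsig4.

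Gata6, which encodes the factor that defines the cell type, measured 4.63 and 5.34 CPM in the Dnmt1fl/fl samples and 3.43 and 5.80 CPM in the Dnmt1KO samples. The genotypes overlapped completely, with the lowest and the highest value both in Dnmt1KO samples, and the log2 fold change was -0.11 (SE 0.39), or 0.22 without Dnmt1KO replicate 1. These values rested on 95, 134, 68 and 137 counts, so Gata6 was detected in every library at low depth. Rarb, which encodes a retinoic acid receptor and is itself a target of retinoic acid, measured 5.41 and 11.7 CPM in the Dnmt1fl/fl samples and 5.15 and 6.06 CPM in the Dnmt1KO samples. Its high value was in Dnmt1fl/fl replicate 2 alone, and Dnmt1KO replicate 2 lay above Dnmt1fl/fl replicate 1. The log2 fold change of Rarb was -0.61 (SE 0.44). It was -0.50 without Dnmt1KO replicate 1 and 0.056 without Dnmt1fl/fl replicate 2.

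Rarb spans chr14:16430839-16819156 of GRCm38 on the minus strand, and 1793 bases of its exons (34.1%) overlap exons of Top2b on the opposite strand. How strand was treated in counting is not given in the sources used here, so reads of the overlap cannot be assigned to 1 of the genes. Top2b, which encodes a DNA topoisomerase, measured 133.7 and 138.0 CPM in the Dnmt1fl/fl samples and 103.2 and 145.4 CPM in the Dnmt1KO samples. The part of Top2b reads in the Rarb values was not tested.

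Timd4, a surface receptor for phosphatidylserine by which these macrophages take up dying cells, measured 91.4 and 140.5 CPM in the Dnmt1fl/fl samples and 67.6 and 78.8 CPM in the Dnmt1KO samples. Icam2, an adhesion molecule used to sort large peritoneal macrophages, measured 41.4 and 72.2 CPM in the Dnmt1fl/fl samples and 28.4 and 40.5 CPM in the Dnmt1KO samples. Timd4 and Icam2 were the only members whose genotypes did not overlap. The gap between the nearest samples was small for Icam2, 41.4 CPM in Dnmt1fl/fl replicate 1 against 40.5 CPM in Dnmt1KO replicate 2. The log2 fold changes were -0.66 (SE 0.29) for Timd4 and -0.72 (SE 0.34) for Icam2, and without Dnmt1KO replicate 1 they were -0.56 and -0.49. Without Dnmt1fl/fl replicate 2 they were -0.32 and -0.26. With the libraries scaled by their totals alone, both Dnmt1KO samples were below both Dnmt1fl/fl samples for 1 member and for 10.6% of all tested genes. Scaled to the list of genes of all macrophages this held for 0 members and 1.61% of all genes, and scaled to that list without Lyz2 for 2 members and 21.6% of all genes.

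Vsig4, a complement receptor of tissue macrophages, measured 23.5 and 17.7 CPM in the Dnmt1fl/fl samples and 11.4 and 27.8 CPM in the Dnmt1KO samples. Its Dnmt1KO samples lay on either side of both Dnmt1fl/fl samples, and the log2 fold change was -0.07 (SE 0.45), or 0.43 without Dnmt1KO replicate 1. Selp encodes P-selectin, an adhesion molecule best known from platelets and endothelium that resident peritoneal macrophages also express, and it measured 20.8 and 15.4 CPM in the Dnmt1fl/fl samples and 4.04 and 16.9 CPM in the Dnmt1KO samples. The low value was in Dnmt1KO replicate 1 alone, at 22.4% of the Dnmt1fl/fl mean, where Dnmt1KO replicate 2 was at 93.7%. Selp had the lowest fitted log2 fold change of the 10, -0.78 (SE 0.65), and without Dnmt1KO replicate 1 it was -0.095.

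Among the secreted proteins and enzymes, Alox15, the lipoxygenase that makes oxygenated lipid mediators in these cells, measured 68.2 and 25.4 CPM in the Dnmt1fl/fl samples and 5.15 and 64.1 CPM in the Dnmt1KO samples. Prg4, which encodes the lubricant protein lubricin, measured 203 and 82.7 CPM in the Dnmt1fl/fl samples and 28.4 and 182 CPM in the Dnmt1KO samples. Both genes were high in Dnmt1fl/fl replicate 1 and Dnmt1KO replicate 2, intermediate in Dnmt1fl/fl replicate 2 and low in Dnmt1KO replicate 1. The Dnmt1KO samples differed from each other by a factor of 12.45 for Alox15 and 6.43 for Prg4, and the Dnmt1fl/fl samples by 2.69 and 2.46. The log2 fold changes were -0.43 (SE 1.07) and -0.44 (SE 0.87), smaller than their standard errors. They were -1.13 and -0.85 from limma-voom, and 0.46 and 0.35 without Dnmt1KO replicate 1.

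F5, coagulation factor V, measured 51.8 and 47.2 CPM in the Dnmt1fl/fl samples and 16.7 and 58.0 CPM in the Dnmt1KO samples. Here the Dnmt1fl/fl samples were close, the Dnmt1KO samples lay on either side of them, and the log2 fold change was -0.40 (SE 0.55), or 0.23 without Dnmt1KO replicate 1. Cd5l, a secreted scavenger-receptor protein that protects macrophages from apoptosis, measured 662.3 and 1016 CPM in the Dnmt1fl/fl samples and 624.1 and 663.5 CPM in the Dnmt1KO samples. Dnmt1fl/fl replicate 2 was high and the other 3 samples were within a narrow range. The log2 fold change of Cd5l was -0.38 (SE 0.29). It was -0.34 without Dnmt1KO replicate 1 and -0.037 without Dnmt1fl/fl replicate 2.

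**Figure D2:**
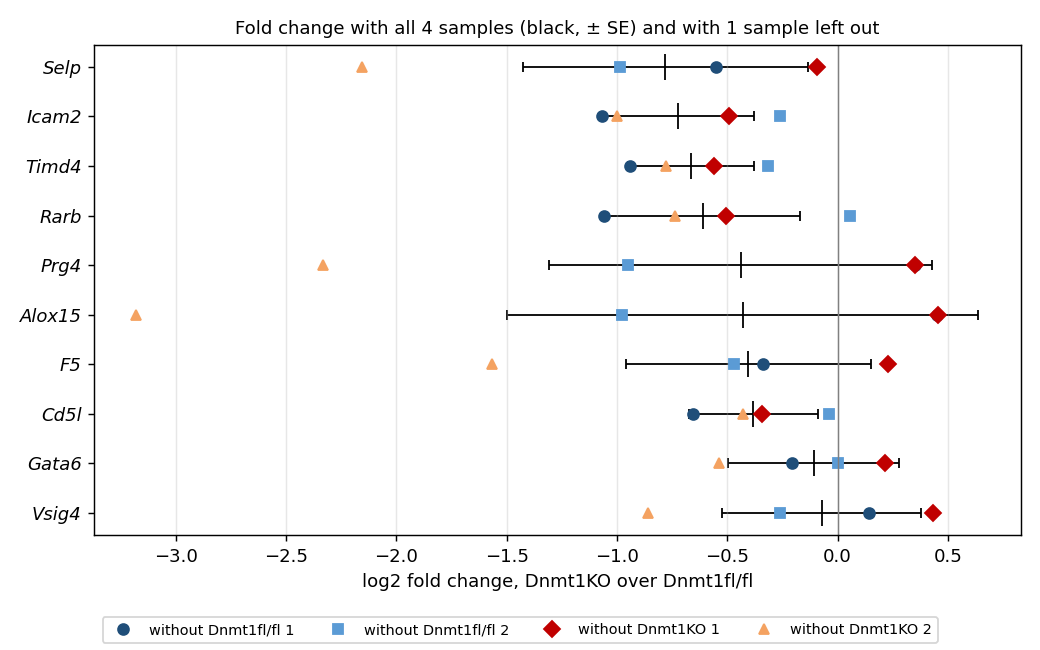
Log2 fold change (horizontal axis, Dnmt1KO over Dnmt1fl/fl) of each resident gene with all 4 samples (black, ± SE) and with each sample left out in turn (coloured points). Without Dnmt1KO replicate 1, Gata6, Alox15, Prg4, F5 and Vsig4 lie above 0, and without Dnmt1KO replicate 2 Alox15 lies at -3.18 and Prg4 at -2.33.

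The 10 genes followed more than 1 pattern across the samples. Timd4, Icam2, Rarb, Cd5l and Gata6 were higher in Dnmt1fl/fl replicate 2 than in Dnmt1fl/fl replicate 1, by factors of 1.54, 1.74, 2.16, 1.53 and 1.15. Alox15, Prg4, Selp, F5 and Vsig4 went the other way, higher in Dnmt1fl/fl replicate 1 by factors of 2.69, 2.46, 1.35, 1.10 and 1.32. In Dnmt1KO replicate 1, Alox15, Prg4, Selp and F5 were further below the Dnmt1fl/fl mean than any of the other 6. Alox15 stood at 11.0% of the Dnmt1fl/fl mean there, Prg4 at 19.8%, Selp at 22.4%, F5 at 33.8% and Vsig4 at 55.1%, while Icam2 stood at 49.97%, Timd4 at 58.3%, Rarb at 60.3%, Gata6 at 68.9% and Cd5l at 74.4%. In Dnmt1KO replicate 2, Alox15 stood at 137% of that mean, Prg4 at 127.5%, Selp at 93.7%, F5 at 117% and Vsig4 at 135%. Icam2 stood at 71.3% there, Timd4 at 68.0%, Rarb at 70.9% and Cd5l at 79.1%, while Gata6, at 116%, stood apart from these 4. This grouping was made after the values were seen and was given no test.

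**Figure D3:**
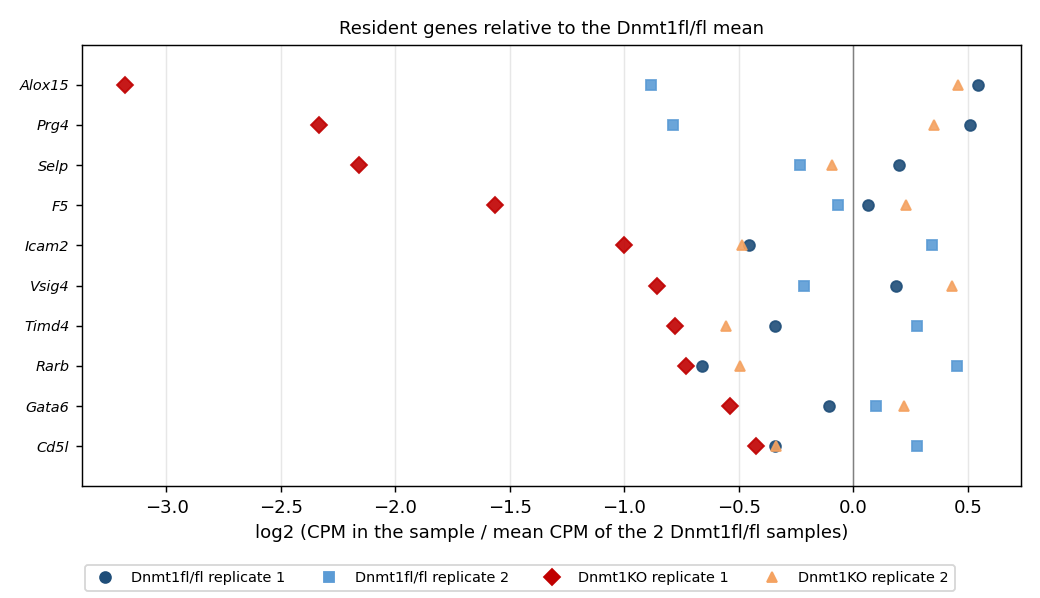
Log2 ratio of the CPM in each sample to the mean of the 2 Dnmt1fl/fl samples (horizontal axis) for the 10 resident genes, 1 point per sample. The points of Dnmt1KO replicate 1 run from -3.18 (Alox15) to -0.43 (Cd5l), and those of Dnmt1KO replicate 2 from -0.56 (Timd4) to 0.46 (Alox15).

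Ratios of counts within a library, which do not depend on how libraries are scaled, gave the same picture. Alox15 per Timd4 count was 0.746 and 0.181 in the Dnmt1fl/fl samples and 0.0762 and 0.813 in the Dnmt1KO samples. Prg4 per Timd4 count was 2.23 and 0.589 in the Dnmt1fl/fl samples and 0.420 and 2.31 in the Dnmt1KO samples. Both ratios were high in Dnmt1fl/fl replicate 1 and Dnmt1KO replicate 2 and low in the other pair, which crosses the genotypes. Timd4 per Cd5l count varied less, at 0.138 in both Dnmt1fl/fl samples and 0.108 and 0.119 in the Dnmt1KO samples. Timd4 per Icam2 count was 2.21 and 1.95 in the Dnmt1fl/fl samples and 2.38 and 1.95 in the Dnmt1KO samples. The resident genes did not keep a fixed ratio to each other across the 4 libraries.

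The median absolute log2 gap between the Dnmt1KO samples was 1.02 over the 10 resident genes and 0.48 over all tested genes. Between the Dnmt1fl/fl samples it was 0.62 over the resident genes and 0.21 over all tested genes. The gap between the Dnmt1KO samples was larger than the fitted fold change for 6 of the 10 resident genes (60.0%) and for 84.3% of all tested genes.

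Levels between genes were compared per kilobase of exon, as the mean over all 4 samples. Cd5l was highest, at 364 CPM per kilobase, followed by Timd4 at 43.5, Prg4 at 29.0, Icam2 at 23.96, Alox15 at 16.6, Vsig4 at 13.5, F5 at 5.85, Selp at 3.23, Rarb at 1.34 and Gata6 at 0.738 CPM per kilobase. The 4 samples of Cd5l (306.5 to 499.0 CPM per kilobase) were all above those of Timd4 (31.1 to 64.6), and those of Rarb (0.978 to 2.22) were all above those of Gata6 (0.528 to 0.892). The ranges of every other pair of neighbours in this order overlapped across samples. Within libraries, Vsig4 was above F5 and F5 above Selp in 4 of 4, and Selp was above Rarb in 3 of 4. Timd4 and Prg4, Prg4 and Icam2, Icam2 and Alox15, and Alox15 and Vsig4 changed order between libraries, each with the first above the second in 2 of 4.

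Promoter sequence is shown because the knocked-out enzyme maintains methylation at CpG dinucleotides, the sites at which these promoters could carry it. Methylation was not measured in these libraries. RefSeq promoters (GRCm38.p6) were at hand for 6 of the 10 genes, and the 250 bases upstream of the start site of Timd4 (chr11:46810549-46810798, plus strand), Selp (chr1:164115014-164115263, plus strand) and F5 (chr1:164151585-164151834, plus strand) are printed with each CpG in capitals, for a gene whose genotypes did not overlap and for a neighbouring pair on chromosome 1.
Timd4: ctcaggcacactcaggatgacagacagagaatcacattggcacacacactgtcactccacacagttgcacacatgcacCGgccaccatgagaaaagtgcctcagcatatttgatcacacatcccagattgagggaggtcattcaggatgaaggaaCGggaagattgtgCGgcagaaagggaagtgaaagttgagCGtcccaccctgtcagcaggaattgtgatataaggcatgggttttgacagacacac
Selp: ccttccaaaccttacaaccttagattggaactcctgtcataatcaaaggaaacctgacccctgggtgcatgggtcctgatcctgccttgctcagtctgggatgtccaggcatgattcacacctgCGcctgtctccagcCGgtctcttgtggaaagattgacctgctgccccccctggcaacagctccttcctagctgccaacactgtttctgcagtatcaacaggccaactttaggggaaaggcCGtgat
F5: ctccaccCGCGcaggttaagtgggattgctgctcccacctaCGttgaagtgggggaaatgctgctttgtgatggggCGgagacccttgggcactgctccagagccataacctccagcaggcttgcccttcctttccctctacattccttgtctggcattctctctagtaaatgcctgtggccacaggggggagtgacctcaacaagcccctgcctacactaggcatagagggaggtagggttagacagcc
Rarb held 16 CpG in the window before its RefSeq start, which lies inside the longer gene annotated by GENCODE, and Timd4 and F5 held 4 each, Selp and Vsig4 held 3 each and Cd5l held 0, where the median over 32851 promoter windows of the same length was 6.

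Selp and F5 lie next to each other on the plus strand of chromosome 1, with 1811 bases between the end of Selp (chr1:164115264-164150026) and the start of F5 (chr1:164151838-164220277), so the printed F5 promoter falls between the genes. Selp per F5 count was 0.401 and 0.325 in the Dnmt1fl/fl samples and 0.242 and 0.292 in the Dnmt1KO samples. Both genes share exon sequence with Gm16548, a long non-coding RNA on the opposite strand, over 9.93% of the Selp and 3.53% of the F5 exon length.

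The promoters were also searched on both strands for the hexamers AGATAA or AGATAG and also TGATAA or TGATAG, the core letters recognised by GATA factors. Of the 6 promoters only that of Cd5l (chr3:87357631-87357880, plus strand) held a match, and it is printed with its 2 matches in capitals.
Cd5l: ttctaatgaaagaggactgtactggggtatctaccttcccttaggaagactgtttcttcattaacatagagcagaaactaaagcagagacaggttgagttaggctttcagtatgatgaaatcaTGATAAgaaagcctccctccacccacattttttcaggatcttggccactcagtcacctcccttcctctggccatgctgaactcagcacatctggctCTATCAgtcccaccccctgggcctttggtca
The first match starts 127 bases and the second, which is on the opposite strand, 31 bases before the start site. Of all promoter windows of this length, 26.5% held at least 1 match. A match describes the letters in this window and not a bound site.

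Other genes of peritoneal macrophages, from a list that did not include the 10, gave a comparison within the same fit. In the test across 12542 genes, edgeR's quasi-likelihood test with Benjamini-Hochberg adjustment called 0 genes (0.0%), while 21 (0.167%) were lower and 14 (0.112%) higher in Dnmt1KO at an unadjusted p under 0.05. DESeq2 called 1 gene, Pagr1a, which is none of the resident or listed genes and is named after its value was seen, and limma-voom called 0. Of the 24 listed peritoneal genes, all tested, 0 passed the adjusted threshold, 1 passed the unadjusted one and was higher (Lyz1), and 19 were below 0, where 49.1% of all tested genes were, with a median log2 fold change of -0.15. That median was 0.020 without Dnmt1fl/fl replicate 1, 0.017 with libraries scaled to genes of all macrophages and -0.39 with that scaling without Lyz2. In 12 of the 24 the lowest sample was Dnmt1KO replicate 1, beside 39.6% of all tested genes, and in 4 both Dnmt1KO samples were below both Dnmt1fl/fl samples, beside 8.56%.

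Of these genes, Serpinb2, a protease inhibitor of activated macrophages, measured 53.2 and 48.5 CPM in the Dnmt1fl/fl samples and 15.8 and 36.8 CPM in the Dnmt1KO samples (log2 fold change -0.95, SE 0.41). Fcna, the lectin ficolin A, measured 131.8 and 136.9 CPM against 43.0 and 125.7 CPM (log2 fold change -0.67, SE 0.50). Wnt2, a secreted signalling protein, measured 2.05 and 0.997 CPM against 0.152 and 1.19 CPM (log2 fold change -1.15, SE 0.94). Each was lowest in Dnmt1KO replicate 1, like the 10 resident genes, and each had an adjusted p of 1.00 (edgeR). Lyz1, a lysozyme, measured 368.8 and 378.0 CPM against 702.3 and 1230 CPM (log2 fold change 1.37, SE 0.33, edgeR adjusted p = 1.00). Its neighbour Lyz2, the locus whose promoter drives Cre in the LysM line, measured 29530 and 28590 CPM against 11350 and 15740 CPM (log2 fold change -1.10, SE 0.32, edgeR adjusted p = 1.00). Lyz1 and Lyz2 are near-identical copies, so how their reads were divided is uncertain.

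**Figure D4:**
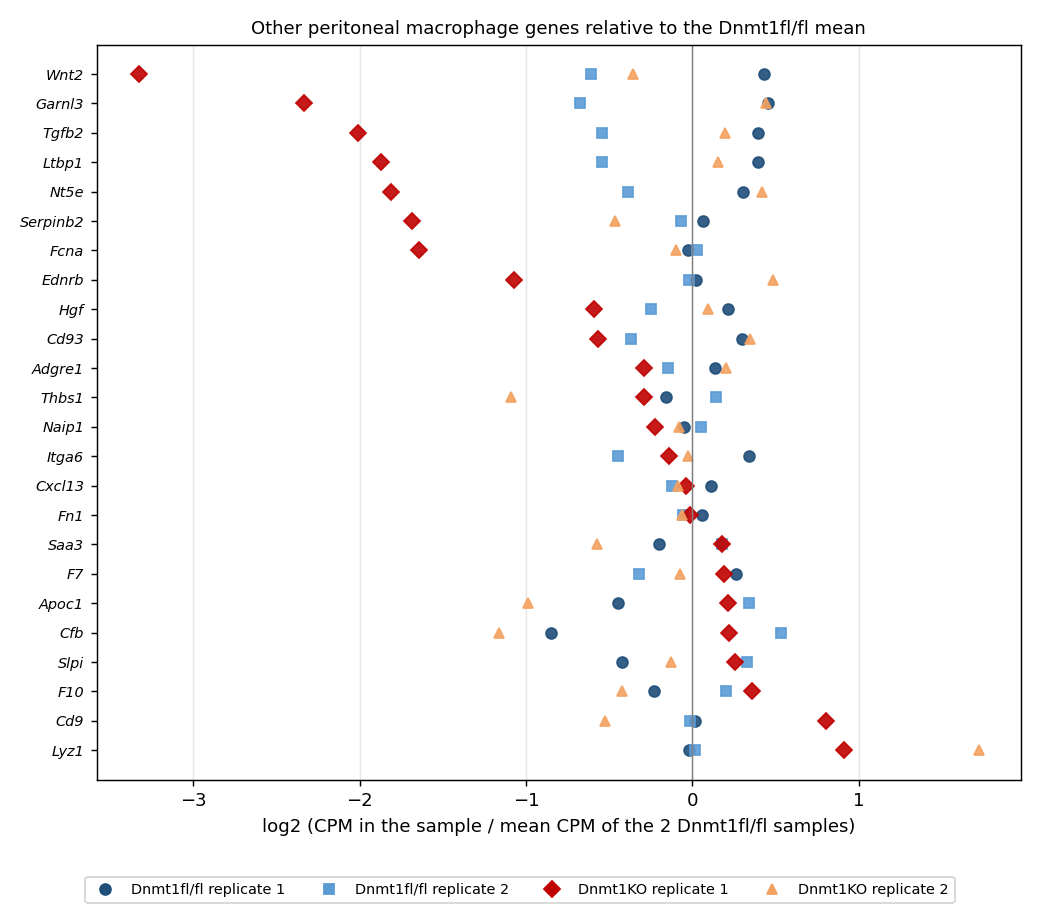
Log2 ratio of the CPM in each sample to the mean of the 2 Dnmt1fl/fl samples (horizontal axis) for the 24 other peritoneal macrophage genes, 1 point per sample. Wnt2 and Serpinb2 are lowest in Dnmt1KO replicate 1, and both Dnmt1KO points of Lyz1 lie above its Dnmt1fl/fl points.

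The retinoic acid pathway acts upstream of Gata6, and of 26 listed genes of retinoid handling and macrophage regulation 22 were in the table and 18 were tested. In edgeR's test 0 of the 18 passed the adjusted and 0 the unadjusted threshold. The median log2 fold change was 0.047, and 6 were below 0, beside 49.1% of all tested genes. In Dnmt1KO replicate 1, 9 were highest and 3 lowest, beside 38.8% and 39.6% of all tested genes. Aldh1a2, an enzyme that makes retinoic acid, measured 11.8 and 15.5 CPM in the Dnmt1fl/fl samples and 12.5 and 10.3 CPM in the Dnmt1KO samples. Rara, another retinoic acid receptor, measured 28.7 and 43.7 CPM against 49.7 and 38.2 CPM, and was highest in Dnmt1KO replicate 1, where Rarb was lowest. Klf4, a transcription factor of monocytes and macrophages, measured 71.7 and 131.0 CPM against 87.25 and 77.7 CPM.

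Of 17 tested genes of other tissue-resident macrophages, 0 passed either threshold in edgeR's test. Their median log2 fold change was -0.055, and 9 were below 0, beside 49.1% of all tested genes. That median was 0.10 without Dnmt1fl/fl replicate 1, -0.43 without Dnmt1KO replicate 2 and 0.18 with libraries scaled to genes of all macrophages. Axl, a receptor for dying cells, measured 95.6 and 115.5 CPM in the Dnmt1fl/fl samples and 78.1 and 58.8 CPM in the Dnmt1KO samples, and Marco, a scavenger receptor, 18.5 and 19.3 CPM against 12.1 and 13.9 CPM. They were the 2 of the 17 in which both Dnmt1KO samples were below both Dnmt1fl/fl samples, beside 8.56% of all tested genes. Slc40a1, the iron exporter, measured 3.56 and 8.45 CPM against 17.7 and 5.38 CPM, and Hmox1, which degrades heme, 232.2 and 240.8 CPM against 461.5 and 228.6 CPM. Slc40a1 and Hmox1 were among 4 of the 17 that were highest in Dnmt1KO replicate 1, beside 38.8% of all tested genes, and 8 were lowest there, beside 39.6%.

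Genes of recruited monocytes and their progeny summed to 12500 and 12700 CPM in the Dnmt1fl/fl samples and 20440 and 11690 CPM in the Dnmt1KO samples. In Dnmt1KO replicate 1, Arg1, an arginase, was at 4849 CPM against a Dnmt1fl/fl mean of 1519 ± 440 (SD, n = 2), and Spp1, which encodes osteopontin, was at 10350 CPM against 3255 ± 728. The other 21 genes together were lowest in that library, with sums of 8551 and 7101 CPM in the Dnmt1fl/fl samples and 5245 and 8428 CPM in the Dnmt1KO samples. In Dnmt1KO replicate 2 Arg1 and Spp1 measured 1132 and 2127 CPM, below both Dnmt1fl/fl samples. Of the 23 genes, 8 were highest and 10 lowest in Dnmt1KO replicate 1, beside 38.8% and 39.6% of all tested genes. Retnla, a secreted product of alternatively activated macrophages, measured 113.1 and 93.8 CPM against 37.5 and 97.8 CPM, and Vcan, a matrix protein of monocytes, 7.41 and 16.0 CPM against 25.4 and 7.37 CPM. In edgeR's test 0 of the 23 passed the adjusted or the unadjusted threshold.

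Markers of other cells of a peritoneal lavage also set Dnmt1KO replicate 1 apart. In that library 39.6% of all tested genes were lowest and 38.8% were highest. The 10 B cell markers, which include Ighm and Ms4a1, were all lowest there, like the 10 resident genes, and summed to 137 CPM against 357, 526 and 584 CPM in Dnmt1fl/fl replicates 1 and 2 and Dnmt1KO replicate 2. The 6 dendritic cell markers were all lowest there too, with sums of 23.6 CPM against 42.3, 40.8 and 53.1 CPM. All 7 neutrophil markers tested, among them S100a8, S100a9, Ltf and Retnlg, were highest there, and the 8 in the table summed to 763 CPM against 195, 262 and 194 CPM. S100a9 measured 5.55 and 60.5 CPM in the Dnmt1fl/fl samples and 320 and 8.35 CPM in the Dnmt1KO samples, and Csf3r, the most abundant marker on the list, 158.3 and 137.4 CPM against 168.8 and 158.5 CPM. The neutrophil granule genes Camp and Ngp were not in the table, which lists a gene only where all 4 samples were above 0. Fibroblast markers were highest there as well, for 5 of 5 tested, with sums of 133 CPM against 46.1, 67.4 and 30.8 CPM.

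Selp and F5 are also made by platelets and endothelium, so markers of those cells were set beside them. Megakaryocyte and platelet markers summed to 98.3 and 87.0 CPM in the Dnmt1fl/fl samples and 163.5 and 101.5 CPM in the Dnmt1KO samples, nearly all of it Pf4, and Gp1bb, Gp5, Gp9 and Tubb1 were not in the table. Endothelial markers summed to 102.4 and 55.6 CPM against 74.9 and 88.5 CPM, mostly Vwf, and Tek and Egfl7 were not in the table. Of the 3 endothelial markers tested, 0 were lowest in Dnmt1KO replicate 1. Cdh5 (0.731 and 0.678 CPM against 0.909 and 0.890 CPM) and Kdr (11.8 and 10.2 CPM against 17.6 and 6.31 CPM) were highest there, and Vwf was lowest in Dnmt1fl/fl replicate 2. Of the 4 platelet markers tested, Itga2b (0.828, 1.20, 0.404 and 1.02 CPM, in the same order of samples) and Treml1 (1.80, 0.757, 0.252 and 1.65 CPM) were lowest in Dnmt1KO replicate 1, as Selp and F5 were, and Pf4 and Ppbp were highest there. Eosinophil markers, of interest since Alox15 is also expressed by eosinophils, summed to 14.1 and 10.1 CPM against 7.68 and 11.1 CPM. The 3 markers in the table differed, as Ccr3 and Il5ra were lowest in Dnmt1KO replicate 1, where Alox15 was lowest, and Siglecf was highest there. Epx, Prg2 and Ear1 were not in the table.

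Sums of T and NK cell markers (45.0 and 78.5 CPM in the Dnmt1fl/fl samples, 50.8 and 61.9 CPM in the Dnmt1KO samples), mast cell markers (12.7 and 10.8 CPM, 10.3 and 8.94 CPM) and mesothelial markers (5.41 and 6.58 CPM, 9.69 and 4.32 CPM) were small. The only red cell gene in the table, Hbb-bs, was at 0.080 to 0.847 CPM. Genes expressed by all macrophages summed to 71950 and 64600 CPM in the Dnmt1fl/fl samples and 63160 and 57190 CPM in the Dnmt1KO samples, and Lyz2 made up 17.97% to 44.3% of each sum. Without Lyz2 the sums were 42420 and 36010 CPM against 51810 and 41440 CPM. Over all 14 genes the median log2 fold change was 0.18, with 4 below 0, beside 49.1% of all tested genes. Of these 14 genes, Lyz2 alone passed the unadjusted threshold. Across all 16 other lists 0 of 156 tested genes passed the adjusted threshold in edgeR's test, 2 (Lyz1 and Lyz2) passed the unadjusted one, and DESeq2 and limma-voom also called 0 of them. The part of these other cells in the values of the resident genes was not tested.

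**Figure D5:**
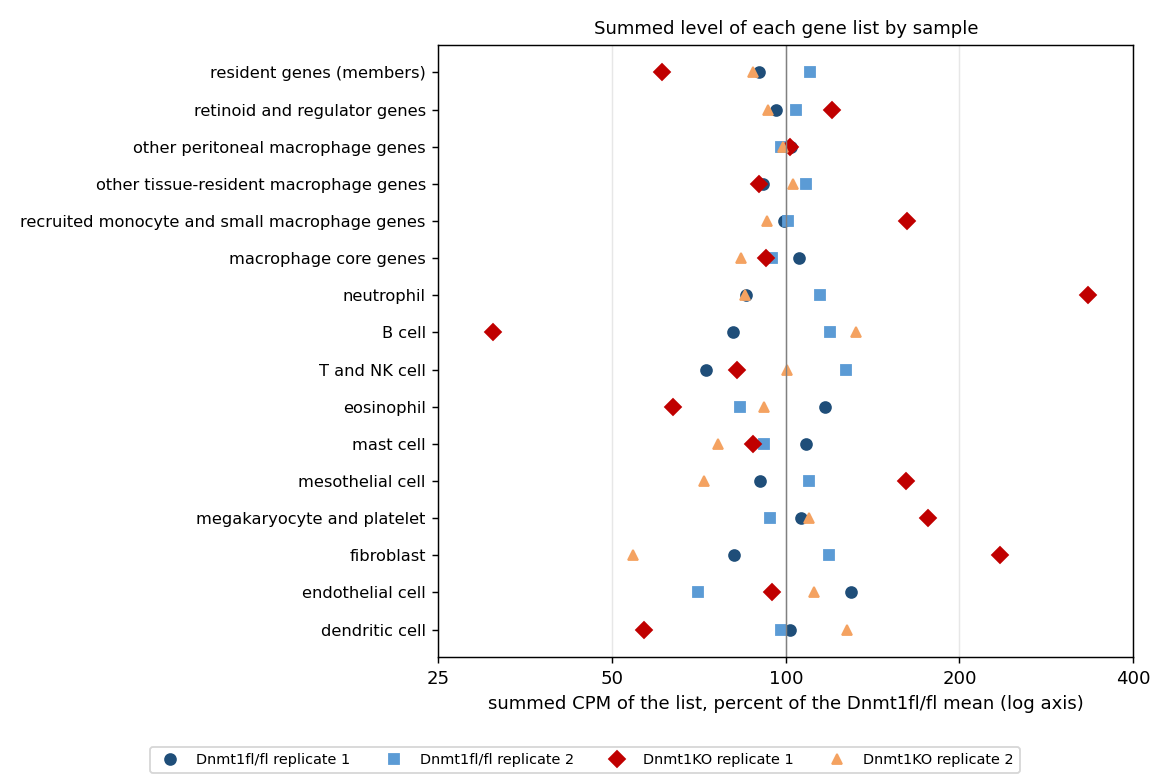
Summed CPM of each gene list in each sample as a percentage of the Dnmt1fl/fl mean (horizontal log axis), 1 row per list. In Dnmt1KO replicate 1 the resident genes stand at 60.95%, B cell markers at 31.0% and neutrophil markers at 334%, and in Dnmt1KO replicate 2 at 87.8%, 132% and 85.0%. The resident sum is mostly Cd5l (624.1 of 794.3 CPM in Dnmt1KO replicate 1 and 663.5 of 1144 CPM in replicate 2), and the single genes in Dnmt1KO replicate 2 run from 68.0% (Timd4) to 137% (Alox15).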

How the data were processed

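The authors deposited estimated counts per gene, not normalized, for all 4 samples. Per the labels, RNA was from peritoneal macrophages, and the submitters' processing notes name HISAT2 2.0.5, featureCounts 1.5.0-p3, DESeq2 1.20.0 and mm10. The annotation and the treatment of strand are not given in the sources used here. Of each sample's values 72.6% to 76.4% were whole, and 4 of the resident genes (Rarb, Prg4, Selp and F5) had fractional values, so counts were rounded before testing. The table lists only genes above 0 in all samples. A shorter table deposited beside it was not used here.

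Samples were grouped by the genotype in their labels. Counts were filtered with filterByExpr, scaled with TMM and fitted in edgeR 4.0.16 (R 4.3.3) with genotype as the only term. The two-sided quasi-likelihood F-test was adjusted by Benjamini and Hochberg's method over all 12542 genes left after filtering. The quasi-likelihood statistic also gave the standard errors. Replicates varied with a dispersion of 0.0837 (coefficient of variation 28.9%). A value of 3 counts corresponded to 0.120 to 0.152 CPM. Also run were limma-voom (limma 3.58.1), DESeq2 1.42.0, other scalings and filters, a replicate block and leaving out each sample. The main edgeR fit was also run on simulated counts, with no result given here, and the other models were not.

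Exon lengths and positions came by gene symbol from GENCODE M21 (GRCm38) and promoters from RefSeq. The resident genes and all lists were chosen with earlier results of these data known. All resident genes and Dnmt1 are named, and of each other list the genes with an adjusted p under 0.05 and up to 4 with the largest absolute log2 fold change could be named, with the most abundant marker of each other cell type. Top2b was added for its overlap with Rarb. The result for 1 gene that this rule names is not reported here.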

Additional observations from a re-analysis of the deposited data

How the results depend on the processing

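The median log2 fold change of the resident genes stayed below 0, between -0.65 and -0.20, under every other scaling, filter and tool tried, and leaving out each sample moved it from -0.93 to 0.060. Scaling to genes of all macrophages moved the median of all tested genes by 0.19 and that of the resident genes to -0.20, with 8 of 10 below 0. Lyz2, lower in both Dnmt1KO samples, made up 17.97% to 44.3% of the summed level of that list. Without Lyz2 on that list, a choice made after seeing the data, the medians were -0.23 and -0.60. The count of resident genes with both Dnmt1KO samples below both Dnmt1fl/fl samples was 1 with library totals alone (10.6% of all tested genes) and 0 with the macrophage scaling (1.61%). It was 2 without Dnmt1KO replicate 1 (32.0% of all tested genes) and 4 without Dnmt1fl/fl replicate 1 (19.8%). It was 5 without Dnmt1fl/fl replicate 2 (23.4%) and 10 without Dnmt1KO replicate 2 (41.9%). The 10, without Dnmt1KO replicate 2, repeats that Dnmt1KO replicate 1 lay below both Dnmt1fl/fl samples and is no check on the count. The genes with an adjusted p under 0.05 numbered 1 by DESeq2 and 0 to 1061 when each sample was left out, and those on the other lists 0 to 44, both highest without Dnmt1KO replicate 2. In those fits the lone sample is assumed to vary like the other genotype. Same-numbered samples share only a number, and their deviations from the genotype means correlated at -0.35 across genes. With the replicate block 0 genes passed and the resident median was -0.65. A crossed pairing, chosen after seeing the data, gave 3 genes (Pagr1a, Tmem254c and S100a9), 1 of them on a list (S100a9), and a resident median of -0.64. Leaving out each sample gave ranges of -1.06 to 0.056 for Rarb, and for list medians -0.17 to 0.22 (retinoid), -0.10 to 0.14 (recruited), -0.051 to 0.38 (all macrophages), -0.28 to 2.53 (neutrophil), -0.40 to 0.39 (T and NK cell), -0.43 to 0.65 (mesothelial), -0.75 to 1.25 (fibroblast), -2.72 to 0.43 (B cell), -0.81 to 0.46 (dendritic cell), -0.24 to 0.40 (megakaryocyte), -0.26 to 0.020 (other peritoneal) and -0.43 to 0.10 (other tissue-resident). The macrophage scaling gave 0.058 for the recruited list, and without Lyz2 it gave -0.19 for the retinoid list and -0.085 for the genes of all macrophages. The megakaryocyte median was -0.38 with the replicate block, -0.29 with the crossed one and -0.54 by limma-voom. The cause of these moves was not tested.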
